A study of Homo sapiens with 12 samples.

Results

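The 3 arrays described here, of 12 in the series, measured MDA-MB-231 cells that had been given only the drug solvent, DMSO, for 24 h. They were chosen by their titles, as the vehicle arrays, and were labelled as biological replicates 1 to 3. The series had 4 groups of 3 arrays, and the other groups were given drugs for the same 24 h. These were SAHA (also called vorinostat), a histone deacetylase inhibitor, at 5 uM, pargyline, a monoamine oxidase inhibitor that also acts on the histone demethylase LSD1, at 2.5 mM, and both at these doses. Only the DMSO group was used, and its levels were set against no treated array. All 3 arrays came from 1 cell line, so they describe that line in the submitters' culture and under DMSO, and no cells without DMSO were analysed here.

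MDA-MB-231 is a human breast cancer line that grows as spindle-shaped, migratory cells. It is widely used as a model of triple-negative breast cancer, the type that lacks the estrogen receptor, the progesterone receptor and amplified ERBB2. Its epithelial origin shows in simple keratins, while its shape and invasiveness belong to the mesenchymal state, in which E-cadherin is lost and vimentin is made. Background knowledge of the line also includes the homozygous loss of CDKN2A, an inhibitor of the G1 kinases.

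Levels are log2 intensities as the authors deposited them, on a scale where 1 unit is a doubling. Each of 11963 genes was given the probe set (a group of short probes for 1 transcript region) with the highest mean over the 3 arrays. Brightness depends on how well the probes bind as well as on RNA amount, so a level places a gene on this array's scale and does not rank its RNA against that of another gene. A guide to low levels was taken from 83 measured genes of retina, lens, pancreas, pituitary, kidney, muscle and thyroid or stomach. These ran between 1.17 (the lens crystallin CRYAA) and 2.92 (RPE65, a visual cycle enzyme), with a median of 2.08, and their 95th percentile, 2.80, is called the off-tissue line below. PDZRN4 and FGB lay just at or under it (2.80 each), and TLE4 and CLIC2 just over it (2.80 each).

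The genes fell into a dim and a bright group of levels. Of the 11963 genes, 7885 (65.9%) had a mean above the off-tissue line, 7791 of them on all 3 arrays, and 4078 (34.1%) were at or below it. The least dense level between both groups was 4.75, with 6885 genes (57.6%) above it and 1000 genes between the line and that level. The median gene was at 6.99, 1291 genes were above 12 and 207 above 14, and the range was 0.80 to 15.67. Values above the line but under 4.75 are close to the dim group and are named as such.

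**Figure D1:**
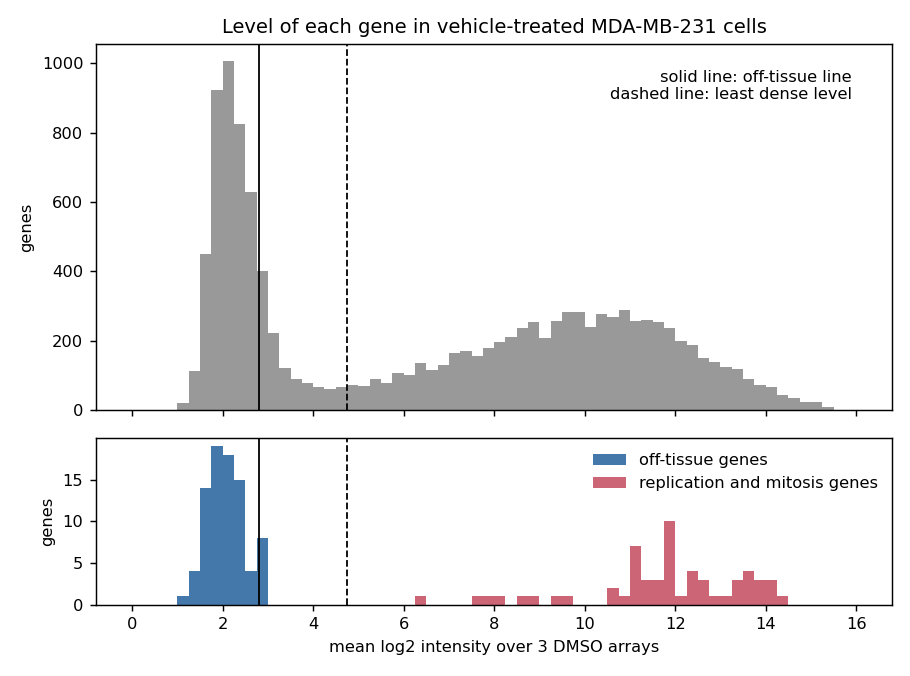
Number of genes (vertical axis) by mean log2 level over the 3 DMSO arrays (horizontal axis), 1 probe set per gene. The lower panel gives the off-tissue genes and the replication and mitosis genes alone. A dim mode lies between 1 and 3 and a broad bright mode around 10; the solid line marks the off-tissue line (2.80) and the dashed line the least dense level (4.75).

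The promoters of bright genes and of the off-tissue genes differed in their CpG content. CpG islands, stretches with many CG pairs, mark the start sites of most widely used genes, whereas many tissue-restricted genes lack them. In the RefSeq promoters of GRCh38.p14, from 250 bases before to 50 after the start, the observed over expected CpG ratio was above 0.6 in 48 of 48 replication and mitosis genes with an entry, of 58 measured. It was above 0.6 in 92.5% of genes above 12, in 86.9% of genes between 4.75 and 12 and in 7 of 69 off-tissue genes (10.1%). All 27305 promoters in the RefSeq table gave 48.9%, but most of them belong to genes not measured here. Of all measured genes, 79.9% had an entry, and 71.9% of those were above 0.6. Bright genes thus lay closer to the measured set than to the whole table. The off-tissue list was chosen as tissue-restricted, a trait that often goes without CpG islands. Its low share was thus partly set by that choice and does not stand for all dim genes. For the genes at or below the line as a whole the check is void, because only 72.4% of them had an entry. The 2 replication or mitosis genes with the highest levels are shown beside the 2 off-tissue genes with the lowest, as the 200 bases that precede the start, 5′ to 3′ on the gene's strand, with each CG in capitals. The stretches lie at chr18:657453-657652 (TYMS, thymidylate synthase), chr2:10122539-10122738 (RRM2, a ribonucleotide reductase subunit), chr21:43168808-43169007 (CRYAA) and chr22:25199658-25199857 (CRYBB3, another lens crystallin), all on the plus strand.
TYMS: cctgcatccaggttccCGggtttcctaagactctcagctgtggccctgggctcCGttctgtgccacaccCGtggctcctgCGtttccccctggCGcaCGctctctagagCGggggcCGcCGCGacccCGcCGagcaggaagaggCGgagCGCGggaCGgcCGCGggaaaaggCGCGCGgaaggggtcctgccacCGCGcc
RRM2: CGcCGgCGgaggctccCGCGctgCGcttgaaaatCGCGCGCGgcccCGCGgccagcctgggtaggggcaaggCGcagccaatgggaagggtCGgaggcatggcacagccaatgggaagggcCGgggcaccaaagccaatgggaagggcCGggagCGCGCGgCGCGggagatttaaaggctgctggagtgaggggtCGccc
CRYAA: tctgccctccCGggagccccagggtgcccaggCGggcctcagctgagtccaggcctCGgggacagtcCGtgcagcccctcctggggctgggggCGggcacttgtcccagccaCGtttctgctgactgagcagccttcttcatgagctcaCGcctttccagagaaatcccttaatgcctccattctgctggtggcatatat
CRYBB3: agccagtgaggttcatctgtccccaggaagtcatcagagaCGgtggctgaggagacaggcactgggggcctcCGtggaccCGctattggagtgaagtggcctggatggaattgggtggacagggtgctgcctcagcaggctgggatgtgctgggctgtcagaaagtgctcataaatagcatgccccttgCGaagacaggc
The printed stretches hold 23 CG pairs in TYMS and 22 in RRM2, against 7 in CRYAA and 4 in CRYBB3. The letters TATAAA, searched on the gene's strand between 50 and 11 bases before the start, were found in 20 of 69 off-tissue promoters (29.0%) and in 2.81% of all promoters in the table, and in none of the 4 shown.

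Ribosomal protein genes made up 14 of the 25 brightest genes. TMSB4X, which encodes the actin-binding peptide thymosin beta 4, was first with 15.58, 15.66 and 15.77 in replicates 1, 2 and 3. RPL41, a ribosomal protein gene, followed with 15.66, 15.61 and 15.58. Then came RPL37, EEF1A1 (the elongation factor that brings tRNA to the ribosome), RPLP1, RPS23, NPM1 (a nucleolar chaperone), RPS18, RPL37A and HSP90AA1 (a cytosolic chaperone), at means between 15.44 and 15.28. The 25 brightest ended with RPL30 at 15.11. The others among them included EIF1, HSPD1, ACTB, PPIA, NACA and both lactate dehydrogenase genes, LDHA (15.12) and LDHB (15.17).

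Of the 100 brightest genes, 38 encoded ribosomal proteins, and all of the 100 were at 14.49 or above. Not every ribosomal protein gene was among the brightest, since RPLP2 averaged 5.66 and RPL27A, by its single probe set, 7.58 among the 51 measured. Both were above 4.75. The median SD over the 25 brightest was 0.025, against 0.056 over all genes and 0.0173 over genes at or below the line.

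Transcripts of ribosomal proteins and elongation factors are known to begin with a run of C and T. A run of 8 or more C or T between 10 bases before and 15 after the start, read on the gene's strand, was present in 35 of 45 ribosomal protein promoters with an entry (77.8%), against 10.8% of all promoters in the table. The 5 brightest genes with an entry are shown for 30 bases before to 20 after the start, with every run of 8 or more C or T in the stretch in capitals, since 4 of them are part of that machinery. They lie at chrX:12975080-12975129 (TMSB4X, plus strand), chr12:56116603-56116652 (RPL41, plus strand), chr6:73521013-73521062 (EEF1A1, minus strand), chr15:69452788-69452837 (RPLP1, plus strand) and chr5:82278335-82278384 (RPS23, minus strand), in GRCh38.p14.
TMSB4X: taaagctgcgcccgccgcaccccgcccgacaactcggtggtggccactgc
RPL41: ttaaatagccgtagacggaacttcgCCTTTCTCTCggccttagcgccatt
EEF1A1: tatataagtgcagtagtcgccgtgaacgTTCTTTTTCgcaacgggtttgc
RPLP1: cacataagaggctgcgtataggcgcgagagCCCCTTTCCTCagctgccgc
RPS23: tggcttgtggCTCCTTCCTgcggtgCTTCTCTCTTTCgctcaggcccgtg
TMSB4X holds no such run, and each of the other 4 holds at least 1. A run is a description of these letters and was not tied to the level of any gene.

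The steroid receptors that define luminal breast cancer were at or near the dim group. ESR1, the estrogen receptor alpha gene, had 3.18, 3.11 and 3.05 by its brightest probe set, a little above the line and under 4.75, and its other 8 probe sets were all at or below the line. ESR2, the beta receptor, had 2.54, 2.58 and 2.53, and PGR, the progesterone receptor, 2.16, 2.19 and 2.16, both under the line on each array. The androgen receptor gene was not analysed here. Of 17 measured nuclear receptors, 14 were above the line (82.4%) and 9 above 4.75, where all genes gave 65.9% and 57.6%. NR3C1, the glucocorticoid receptor, led them with 12.46, 12.43 and 12.38, and its dimmest probe set still averaged 9.80. RXRA, the common partner of several nuclear receptors, averaged 10.28, PPARG 9.69 and VDR, the vitamin D receptor, 9.47. NR3C2, the mineralocorticoid receptor, had the largest spread of the family, with 3.01 and 3.04 in replicates 1 and 2 and 4.51 in replicate 3.

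Among growth factor receptors, EGFR was bright, ERBB2 was at a middle level and the other ERBB genes were at or near the line. EGFR had 11.42, 11.55 and 11.67. ERBB2, the HER2 gene, had 8.26, 8.40 and 8.19 by 1 probe set, while its second was under the line at 2.04. ERBB3 averaged 2.82 and ERBB4 2.43, so ERBB3 lay at the line and ERBB4 under it. EGFR itself had 6 probe sets, of which 2 were above the line and 4 at or below it.

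Of the other receptor tyrosine kinases, 16 of 24 were above the line (66.7%), close to the share of all genes. AXL, which is known to mark mesenchymal breast cancer lines, had 13.84, 13.83 and 13.85. MET, the hepatocyte growth factor receptor, averaged 11.99 and EPHA2, an ephrin receptor, 11.81. KIT, PDGFRB, DDR2, RET and NTRK3, the lowest 5 of the list, were all under the line.

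All 7 measured receptors of the TGF-beta family were above the line, TGFBR2 highest at 11.62 and TGFBR1 lowest at 3.01, under 4.75. Of 21 cytokine, chemokine and G protein-coupled receptors, 17 were above it, led by IL6ST (12.19), the signal chain shared by interleukin 6, interleukin 11 and LIF, and TNFRSF10B (11.71), a TRAIL death receptor. CXCR4, CCR7, GHR and OXTR were under it. Adhesion and uptake receptors were the brightest of the receptor lists, with 18 of 20 above the line and a median of 11.08. TFRC, which takes up iron-loaded transferrin, had 14.59, 14.55 and 14.56, and ITGB1, the common beta chain of many integrins, 14.11, 14.25 and 14.27. Over all receptor lists, 75 of 93 measured genes were above the line (80.6%), where all genes gave 65.9%. Genes with several probe sets were above it more often (78.6%) than genes with 1 (58.8%), and the receptor share was not adjusted for this. With the mean of all probe sets, 68 of the 93 receptors and 7771 of 11963 genes were above the line drawn that way.

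CD44 and CD24 are the surface pair used to describe stem-like breast cancer cells as CD44 high and CD24 low. Both were above 4.75 by their brightest probe sets. CD44, the hyaluronan receptor, had 13.64, 13.72 and 13.67 by its brightest of 8 probe sets, and the dimmest of these averaged 1.97. CD24, a small surface glycoprotein, had 7.82, 7.81 and 7.77, and its 6 probe sets were all above the line, down to 4.64. The brightest probe set placed CD24 near the median of all genes. The others averaged 7.75, 6.73, 5.19, 5.07 and 4.64, so the dimmest was under 4.75.

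**Figure D2:**
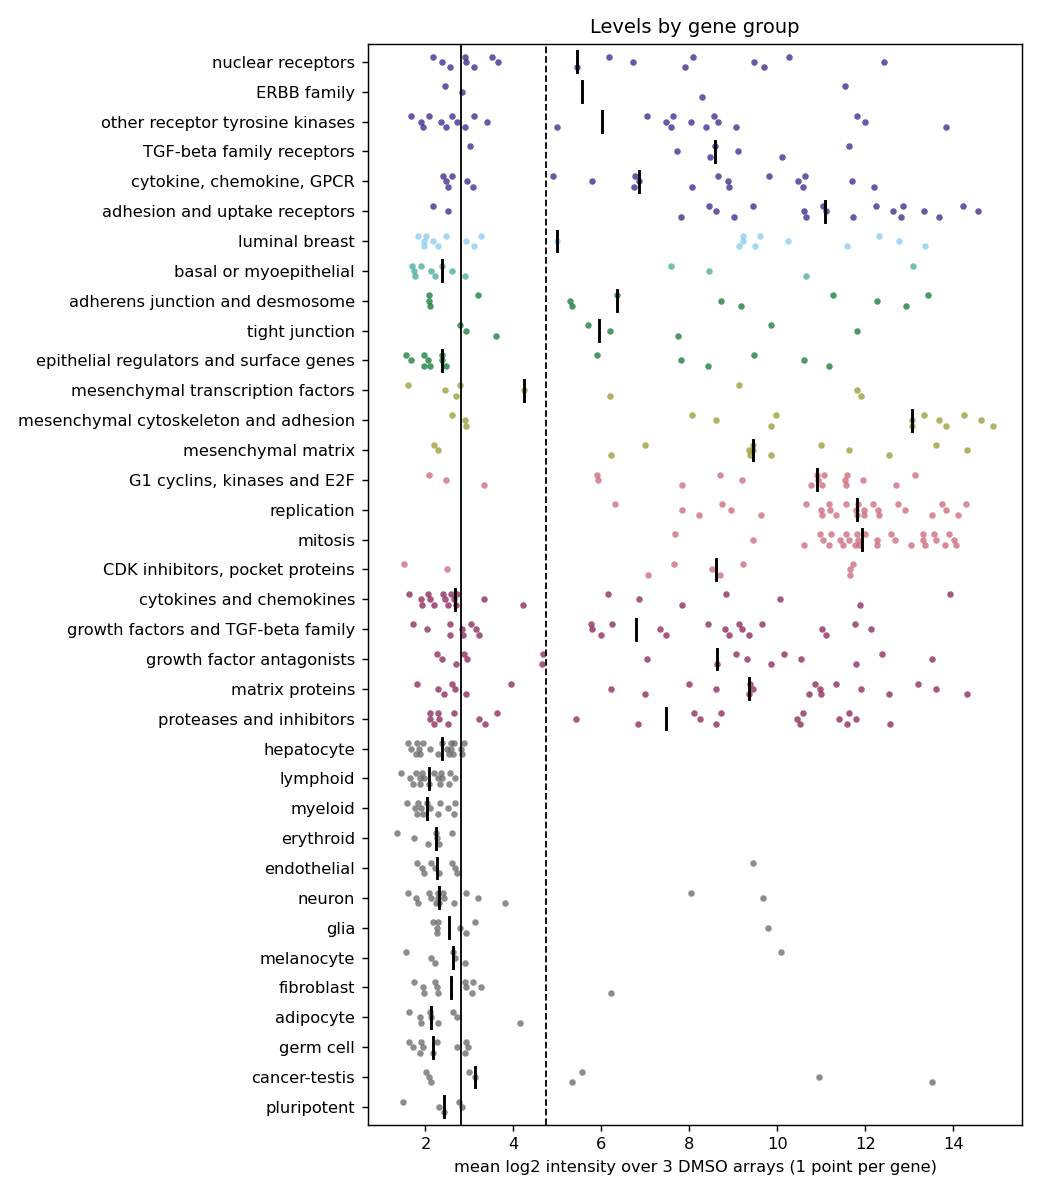
Log2 level (horizontal axis) of the measured genes of each list (rows), with 1 point per gene as its mean over the 3 DMSO arrays and a short bar at the list's median. The solid vertical is the off-tissue line and the dashed one the least dense level. The blood and hepatocyte lists gather in the dim group under 3, whereas every replication and mitosis gene lies above 6.

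The mesenchymal list was mostly bright. Of 38 measured genes, 31 were above the line (81.6%) and 28 above 4.75, where all genes gave 65.9% and 57.6%. As with the receptors, the share was not adjusted for the number of probe sets per gene. VIM, the intermediate filament protein of mesenchymal cells, had 14.89, 14.90 and 14.90, which is among the 100 brightest genes. CAV1, the coat protein of caveolae, averaged 14.63 and LGALS1, a galactose-binding lectin, 14.24. Cytoskeleton and adhesion genes gave 14 of 15 above the line, and the exception was CDH2.

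CDH2, which encodes the N-cadherin often gained in the mesenchymal state, had 2.58, 2.63 and 2.61, and its second probe set was lower still. CDH1, which encodes the E-cadherin of epithelial junctions, had 2.09, 2.11 and 2.12, so both were under the line on each array. CDH11, a cadherin of mesenchymal cells, was bright, with 9.66, 9.47 and 10.41. TAGLN, an actin-binding protein of smooth muscle, had 3.85, 2.84 and 2.09 and thus crossed the line between replicates.

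The transcription factors that drive this state were present in part. Of 9 measured, 5 were above the line (55.6%) and 4 above 4.75, with a median of 4.25, so this class was below the shares of all genes. ZEB1, a repressor of CDH1, had 11.68, 11.86 and 11.87 and SNAI2, a related repressor, had 9.16, 9.26 and 8.99. ZEB2 averaged 6.20, and SNAI1, at 4.25, was above the line but under 4.75. TWIST1 (2.70), TCF4, PRRX1 and FOXC2 were not above the line. SOX9, another factor of the list, averaged 11.91.

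Of the epithelial genes, 23 of 36 were above the line (63.9%), close to the 65.9% of all genes. Adherens junction and desmosome genes gave 10 of 13, with a median of 6.36. The highest were CTNNB1 (beta-catenin) at 13.42, CTNNA1 at 12.93, DSG2, a desmosomal cadherin, at 12.28 and DSP (desmoplakin) at 11.26, while the plaque genes JUP and EVPL averaged 6.36 and 5.34. Of 15 epithelial regulators and surface genes, 6 were above the line. ESRP1, the epithelial splicing factor, averaged 2.11, and GRHL2, a factor that maintains the epithelial state, 2.37, and RAB25 and OVOL1 were under 2. AP1M2, an epithelial sorting adaptor, had 11.30, 11.11 and 11.08, and SPINT2, a protease inhibitor of epithelial surfaces, averaged 10.60. EPCAM, the epithelial adhesion molecule, had 8.38, 8.29 and 8.59, all above 4.75.

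Of 16 measured keratins, 6 were above the line. KRT18 had 13.38, 13.45 and 13.22, and KRT7, KRT8 and KRT19, also keratins of simple epithelia, averaged 12.31, 11.59 and 10.24. KRT20, another of that kind, was under the line at 2.64, and KRT10, a keratin of the upper epidermis, averaged 11.98. KRT5 had 1.73 on all 3 arrays and KRT14 averaged 2.14, and these keratins of basal cells were under the line. Of the basal or myoepithelial list, 5 of 13 genes were above the line, with SFN (13.08) and ITGA6 highest. Of the luminal list, 14 of 21 were (66.7%), close to the 65.9% of all genes. In that list MUC1 averaged 1.96 and FOXA1, a partner of the estrogen receptor, was near the line at 2.92. GATA3, a factor of luminal cells that was listed as low for this line, had 9.33, 9.22 and 9.13 by its brightest probe set, and its others averaged 5.02 and 2.41. Of the markers listed for MDA-MB-231, VIM, CD44, ZEB1 and SNAI2 were bright, PGR and CDH1 were under the line and ESR1 was just above it, while GATA3 went against its listing.

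Of the cell cycle genes, CDK inhibitors and pocket proteins included, 83 of 87 were above the line (95.4%), where all genes gave 65.9%. All 28 replication genes and all 30 mitosis genes were above it, with medians of 11.81 and 11.92. TYMS, which makes the thymidylate needed for DNA, had 14.24, 14.31 and 14.30, RRM2 14.18, 14.12 and 14.03, and PCNA, the sliding clamp, 13.86, 13.79 and 13.82. In mitosis, CDK1, the kinase that starts it, had 13.95, 13.96 and 14.16, and BUB3, a checkpoint protein, averaged 14.07. CDT1, a licensing factor, was lowest in replication at 6.31, and PLK1, a mitotic kinase, lowest in mitosis at 7.67.

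In G1, CDK4 averaged 13.14 and its partner CCND1 11.57, while CCND2 (2.47) was under the line. CDK6, the related kinase, averaged 3.34, above the line but under 4.75, by its single probe set. Of the inhibitors, CDKN1B (p27) averaged 11.73 and the pocket protein RB1 11.66. CDKN1A (p21), the inhibitor that p53 turns on, had 7.13, 7.10 and 6.96, near the median of all genes. CDKN2A and CDKN2B were the only members of that list at or below the line.

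CDKN2A had 2.49, 2.51 and 2.49, with all 3 of its probe sets under the line, and CDKN2B had 1.51, 1.50 and 1.49. MTAP, a methionine salvage enzyme and their neighbour on chromosome 9, had 2.72, 2.75 and 2.73, and its 5 probe sets were all under the line. The genes around them, chosen after these values were seen, were read in RefSeq order. From MLLT3 to TEK, 26 genes were measured, and the 20 between MLLT3 and CAAP1 were at or below the line on all 3 arrays, at most at 2.75. MLLT3 averaged 7.03 at 1 end and CAAP1 12.11 at the other. CAAP1 was followed by PLAA (10.60), IFT74 (7.89), LRRC19 (2.83, just above the line) and TEK (2.67, under it). The stretch was cut at the nearest genes above the line, so its being dim throughout follows from that choice. Over all genes, 34.1% were at or below the line.

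Of those 20 genes, 13 were type I interferon genes, which are silent in most unstimulated cells, and ELAVL2 is a neuronal gene. FOCAD (2.23), KLHL9 (2.57) and MTAP are not restricted to 1 tissue. Copy number was not measured, so a deletion and silent genes cannot be told apart from these values.

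**Figure D3:**
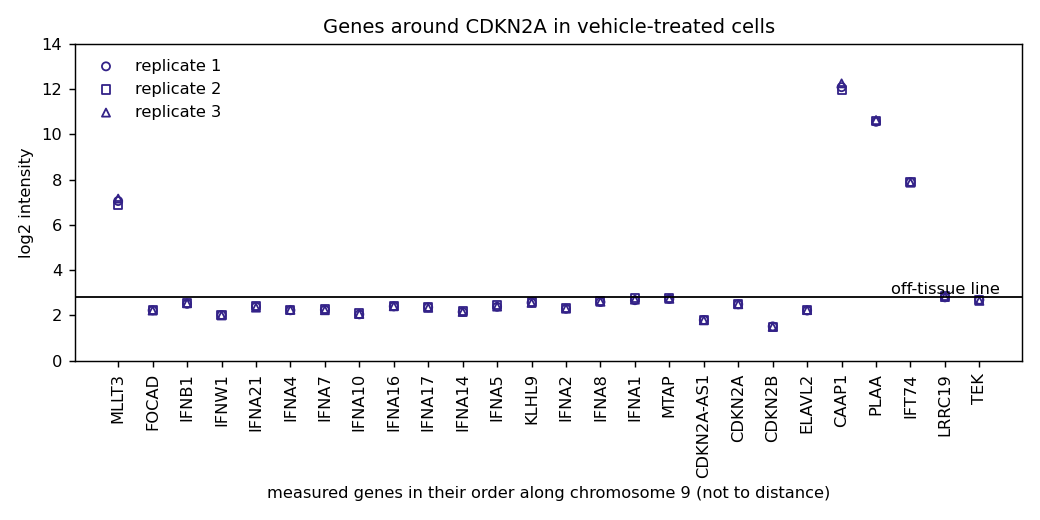
Log2 level (vertical axis) of the 26 measured genes from MLLT3 to TEK in RefSeq order along chromosome 9 (horizontal axis, rank and not distance), 1 point per DMSO array. The 20 genes between MLLT3 and CAAP1 lie at or under the off-tissue line in every replicate.

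Secreted genes gave 81 of 113 above the line (71.7%, where all genes gave 65.9%), unevenly over their classes. Only 9 of 22 cytokines and chemokines were above it. MIF, a cytokine also found inside many cells, had 13.93, 13.96 and 13.91, IL11 12.08, 11.96 and 11.57, and LIF 9.98, 10.05 and 10.16. Both IL11 and LIF signal through IL6ST, given above. IL6 (2.10), TNF (1.90) and IL1B (2.50) were under the line, and CXCL8, the neutrophil chemokine interleukin 8, had 6.79, 7.14 and 6.65 with a second probe set at 4.22.

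Growth factors were above the line in 22 of 26 cases, and ligands of the ERBB receptors led them. NRG1, a ligand of ERBB3 and ERBB4, had 12.09, 12.17 and 12.14 by the brightest of 6 probe sets. Its other probe sets averaged between 2.84 and 6.49. HBEGF, a ligand of EGFR, had 11.78, 11.87 and 11.65, and EREG 10.97, 11.06 and 11.29. EGF was near the line at 2.82. VEGFA, the vascular growth factor, averaged 11.01 and TGFB2 9.66, while TGFB3 was under the line at 1.73.

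Antagonists were above the line in 14 of 17 cases, led by the WNT inhibitor DKK1 with 13.63, 13.58 and 13.37, IGFBP4 (12.37) and IGFBP7 (11.79). Of matrix genes, 19 of 24 were above it, with CCN1 (14.32), CCN2 (13.62), COL13A1 (13.19) and THBS1 (12.54) highest. COL1A1 averaged 6.22 and COL1A2, the other chain of type I collagen, 2.28. Proteases and their inhibitors gave 17 of 24, with TFPI2 (12.57), TFPI (11.80), PLAU (11.63) and TIMP1 (11.59) highest. MMP1 (2.65), MMP2 (2.19), MMP7 and MMP13 were under the line and MMP9 (3.21) under 4.75.

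Genes of other lineages were mostly in the dim group. Of 144 measured, 30 were above the line (20.8%) and 10 above 4.75, and of the 135 that are not cancer-testis genes, 24 and 6 were. All genes gave 65.9% above the line and 57.6% above 4.75. None of 37 lymphoid, myeloid and erythroid genes was above the line, and the highest of them was at 2.67. They included PTPRC, which marks white blood cells in general. Hepatocyte genes gave 2 of 19 above it, CYP3A4 (2.87) and AHSG, both under 4.75. Adipocyte genes gave 1 of 9, LPL, at 4.15.

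The 6 exceptions above 4.75 outside the cancer-testis list came from different lineages. MITF, the melanocyte regulator, had 10.32, 10.03 and 9.93, with the pigment genes TYR, TYRP1 and MLANA under the line and PMEL under 4.75. MBP, known from myelin, had 9.81, 9.73 and 9.85 by 1 of 4 probe sets, and the other 3 were between 1.65 and 2.05. ENO2, the neuronal enolase, averaged 9.67 and GAD1, an enzyme of GABA synthesis, 8.04, while SNAP25 and SYP were under the line. ICAM2, an endothelial adhesion molecule, averaged 9.45, with VWF, CDH5 and PECAM1 under the line. COL1A1, of the fibroblast list, was the sixth. In each of these lists the single bright gene or pair stood beside other defining genes in the dim group.

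Cancer-testis genes are normally limited to the germ line and often active in tumours. Of 9 measured, 6 were above the line (66.7%), close to the 65.9% of all genes. Of the 9, 4 were above 4.75, where all genes gave 57.6%. MAGEA6 had 13.58, 13.52 and 13.48, MAGEC1 10.96, 10.89 and 10.99, MAGEA1 averaged 5.56 and MAGEB2 5.34. PRAME, PAGE1 and GAGE1 were under the line. MAGE genes are close copies of each other, so probes for 1 may also read another.

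Of the histone deacetylases, the LSD1 complex genes and the monoamine oxidases, on which the drugs of the series act or which bind their targets, 15 of 16 were above the line in DMSO. Over all genes, 65.9% were. HDAC2 had 13.18, 13.24 and 13.34, HDAC1 13.06, 12.98 and 13.01, and HDAC3 averaged 10.65. HDAC4, HDAC6, HDAC9 and HDAC7 averaged 8.42, 7.13, 6.47 and 5.69, and HDAC11 (3.98) and HDAC5 (3.17) were under 4.75. The other probe sets of HDAC6 were under the line, at 2.05 and 1.44. HDAC8 and HDAC10 were not analysed here. KDM1A, the gene of LSD1, had 10.48, 10.53 and 10.32, and its partner RCOR1 (CoREST) averaged 10.99. Of the monoamine oxidases, MAOA had 7.39, 7.18 and 7.46 and MAOB 2.39, 2.42 and 2.39, so MAOB alone of the 16 was at or below the line.

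Replicate spread was small and depended on level. The median SD over 3 arrays was 0.056 for all genes, 0.0986 for genes above the line and 0.0173 for those at or below it. It was highest at middle levels, with 0.172 between 4 and 5 and 0.175 between 5 and 6, and was 0.112 between 9 and 10 and 0.028 above 15. The 90th percentile among genes above the line was 0.258, and 132 genes (1.10%) had an SD above 0.5.

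Arrays 1 and 2 were closer to each other than either was to array 3. Across genes, Pearson's r was 0.9992 for replicates 1 and 2, 0.9985 for 1 and 3 and 0.9986 for 2 and 3, and genes are not independent replicates. A difference of over 1 was seen in 32 genes between replicates 1 and 2, in 62 between 1 and 3 and in 64 between 2 and 3. The spiked hybridization controls averaged 11.22, 11.06 and 10.92 in replicates 1, 2 and 3, while the unspiked trp controls stayed between 2.35 and 2.37. The actin probe sets at the 3′ and 5′ ends differed by 0.80, 0.75 and 0.82. The part of these array differences in the gene values below was not tested.

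**Figure D4:**
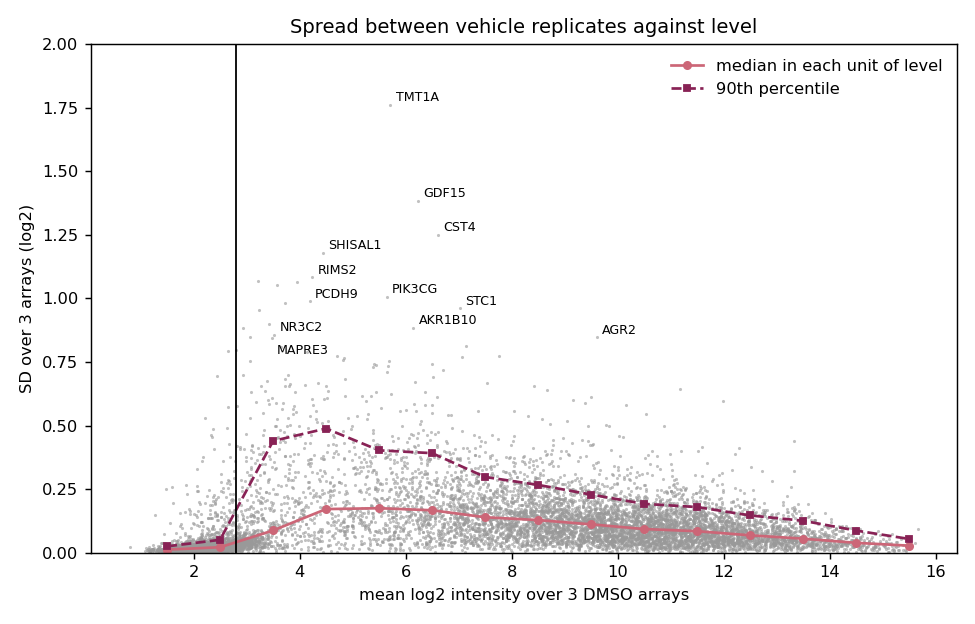
SD over the 3 DMSO arrays (vertical axis, log2 units) against the mean log2 level (horizontal axis), 1 grey point per gene, with the median and 90th percentile in each unit of level as lines and the off-tissue line as a vertical. The median is highest between 4 and 6; names mark the 12 largest SDs among genes above the off-tissue line on all 3 arrays.

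The 12 largest SDs were taken among genes above the line on all 3 arrays, which leaves out genes such as TAGLN that crossed it. TMT1A, a methyltransferase, had 6.24, 3.75 and 7.15, the largest SD at 1.76. GDF15, a secreted TGF-beta family member that cell stress raises, had 6.51, 7.46 and 4.73, with an SD of 1.38. These values are of its brightest probe set, and its other probe set averaged 1.35. CST4, a secreted cystatin, had 7.81, 5.31 and 6.69. Others of the 12 were SHISAL1, RIMS2, PIK3CG, PCDH9, STC1, AKR1B10, NR3C2, AGR2 and MAPRE3. AGR2, a luminal secretory gene, had 9.33, 8.93 and 10.56, and the secreted STC1 6.58, 6.37 and 8.13, both highest in replicate 3. Among genes above the line on all 3 arrays, the smallest SDs, 0.0011 to 0.002, were those of ACTBP9, TRIM45, MTO1, CAMSAP1 and RC3H1, and ACTBP9 is an actin pseudogene whose probes may read actin itself.

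Some pathways moved together between replicates. Over all 7885 genes above the line, 2573, 2569 and 2743 were highest in replicates 1, 2 and 3, and 2581, 1757 and 3547 lowest. Genes of the amino acid stress factor ATF4 were highest in replicate 2 in 17 of 21 cases and lowest in replicate 3 in 18. CHAC1, which degrades glutathione, had 4.41, 5.16 and 4.31, and SLC3A2, a chain of amino acid transporters, 10.18, 10.40 and 9.52. Cholesterol synthesis genes were lowest in replicate 2 in 14 of 16 cases and highest in replicate 3 in 11, with a median SD of 0.266. INSIG1, which restrains sterol synthesis, had 11.35, 10.46 and 11.71, and HMGCS1, an early enzyme of it, 10.14, 9.64 and 10.55.

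Smaller shared shifts were seen in other lists. Replication genes were highest in replicate 1 in 20 of 28 cases and lowest in replicate 3 in 21, with a median SD of 0.082. Ribosomal protein genes of the list were highest in replicate 1 in 20 of 26 cases and lowest in replicate 3 in 20. CDK inhibitors and pocket proteins were highest in replicate 3 in 7 of 8 cases, and growth factors in replicate 2 in 15 of 22. The lists named for such shifts are among the more one-sided of those examined, a choice made with the values known. Others showed no such shift. Endoplasmic reticulum chaperones were highest in replicates 1, 2 and 3 in 6, 3 and 7 of 16 cases. With other choices of probe set or scaling, the ribosomal count highest in replicate 1 ranged between 16 and 25. The growth factor count highest in replicate 2 ranged between 10 and 16. The spiked controls were also highest in replicate 1 and lowest in replicate 3, and their part in these shifts was not tested.

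**Figure D5:**
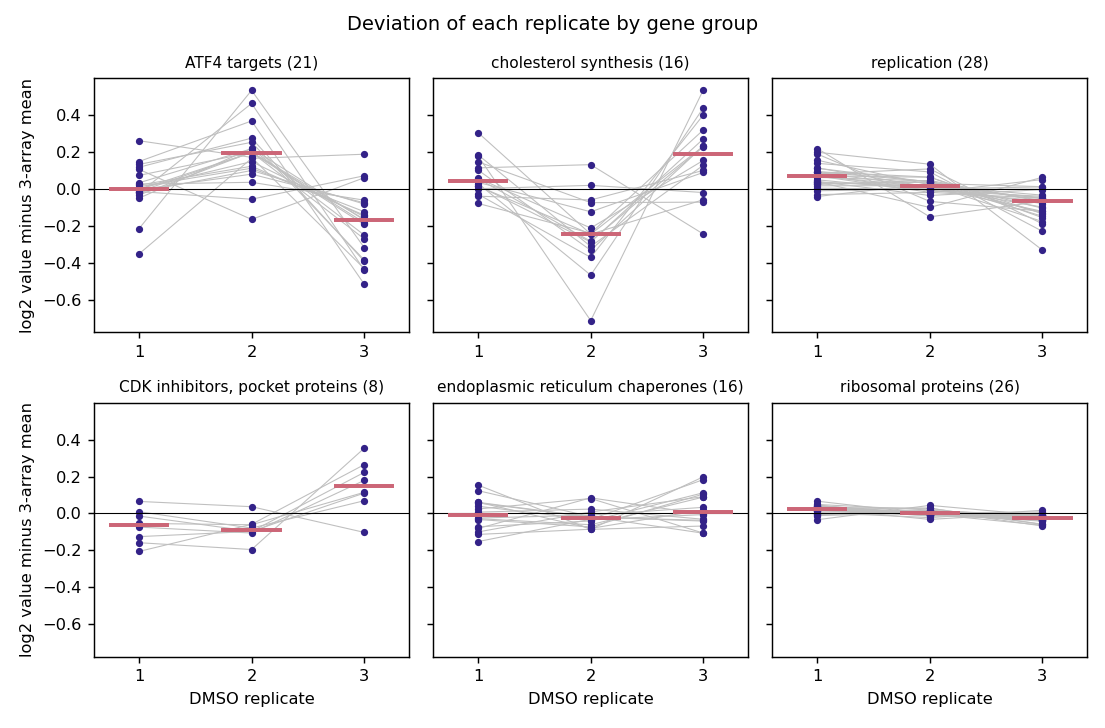
Deviation of each DMSO replicate from the gene's mean over the 3 arrays (log2 units), for genes of 6 lists above the off-tissue line, 1 point per gene and replicate, joined by gene, with a bar at the median. ATF4 targets sit high in replicate 2 and low in replicate 3, and cholesterol synthesis genes low in replicate 2 and high in replicate 3.

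Probe sets of 1 gene differed far more than replicates did. Over 4310 genes with several probe sets, the range of their means had a median of 1.69 and a 90th percentile of 7.84, and it was above 1 in 2650 genes (61.5%). In 1211 of these genes (28.1%) the brightest probe set was above the off-tissue line and the dimmest was not, as in EGFR, ERBB2, GATA3 and CD44. Of genes with several probe sets, 78.6% were above the line, against 58.8% of the 7653 genes with 1.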

How the data were processed

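Labelled RNA of MDA-MB-231 cells was hybridized to Affymetrix human expression arrays, 1 per culture. Per the submitters' processing notes, the authors made the deposited log2 values with RMA, with no version stated, and whether the 12 arrays were normalized together is not given in the sources used here. Nor is the background model, on which dim levels, their small SDs and the off-tissue line depend. The values were used as deposited. Of 22277 probe sets, 62 were controls, 1043 had several genes and 2108 no gene in the platform annotation. These were left out, and symbols were updated by gene identifier through the RefSeq table of GRCh38.p14 (11954 of 11963 genes). Each gene took its probe set with the highest mean over the 3 DMSO arrays. SDs are over these 3 arrays, whose number limits the precision. With 1 group, no test was run. Genes were named from among the 25 brightest, the 12 largest and 5 smallest SDs of genes above the line on all 3 arrays, up to 5 highest and 5 lowest per list, lineage genes above the line and a set of fixed breast and drug target genes. CDH11, CXCL8, ESRP1, EVPL, FOXA1, GRHL2, IL1B, JUP, KRT20, MMP1, MMP9, RPL27A, RPLP2, SNAP25 and neighbours on chromosome 9 such as FOCAD and IFT74 fall outside that rule and were chosen after their values were seen. The arrays and gene lists were chosen with earlier results of these data known. Alternatives changed the line, probe set, scaling or replicates. Scripts were tested on simulated data. Python 3.11.15, pandas 2.3.3, NumPy 2.4.6, SciPy 1.17.1 and matplotlib 3.10.9 were used.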

Additional observations from a re-analysis of the deposited data

How the results depend on the processing

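No paired analysis was possible because the description covers 1 group with no test. Over 25 results and 199 alternative values, 192 stayed within a factor of 1.5 of the reported value in either direction, and 7 moved. Some counts, such as 83 of 87 cell cycle genes and 15 of 16 drug target genes, could not rise by that factor. The tally is therefore a loose measure of stability. The number of genes above the line ranged between 5981 and 9043. The lineage count of 30 became 60 with the line at the 75th percentile of the off-tissue genes, 7 with it at the median over genes and 10 with it at the least dense level, an alternative chosen after seeing the data. The chromosome 9 list gave 9 in place of 3 at the 75th percentile, and the epithelial list 14 in place of 23 at the median over genes. These counts move because the line itself moves. The median SD was 0.0986 over only genes above the line, and ranged between 0.0331 (without DMSO replicate 3) and 0.0458 (without DMSO replicate 2) with 1 replicate left out. The latter are SDs over 2 arrays, whose median runs lower than over 3 whichever array is left out. They are thus not a like measure to the 0.056 over 3 arrays. With the mean of all probe sets, 46 of 95 named genes moved by more than their replicate SD, and 19 of the 25 brightest genes stayed among them. The line rests on dim probe sets, and levels near it lie close to background.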
